A study of Homo sapiens with 6 samples.

Results

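Sirtuins are enzymes that consume NAD+ to remove acetyl and other acyl groups from lysines. Humans carry 7 of them, SIRT1 to SIRT7, and all 7 were taken here by name from the deposited gene tables, as 7 of 57820 gene rows. All 7 passed the filter on low counts and were among the 17679 genes tested. The choice of genes went by name and did not use their measured values, but was made with earlier results of these data known.

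The RNA came from U266, a human multiple myeloma cell line, that is, a line of malignant plasma cells. In the MYC group (n = 3), U266 cells had been transduced with a lentiviral vector that drives MYC from the EF1A promoter, a strong promoter active in most cell types. The control group (n = 3) was U266 grown in the same RPMI-1640 medium with fetal bovine serum, and whether it carried a vector is not given in the sources used here, so transduction and MYC cannot be told apart. The comparison addresses the effect of raised MYC on gene expression in this line. The title of the series points to NAMPT, the enzyme that salvages nicotinamide into NAD+, as a weak point of cells with high MYC.

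Each turnover of a sirtuin splits 1 NAD+ and releases nicotinamide, which in turn inhibits the enzyme, so sirtuin activity follows the NAD+ supply of the cell. SIRT1, SIRT6 and SIRT7 act mainly in the nucleus on histones, transcription factors and, for SIRT7, the nucleolus. SIRT2 is mainly cytosolic, and SIRT3, SIRT4 and SIRT5 are mitochondrial. RNA levels give neither protein amount nor enzyme activity. In bulk RNA, fewer cells that express a gene and less RNA per cell cannot be told apart. All levels here are relative to the total of their library. Higher and lower thus refer to a share of the RNA, and the amount per cell was not measured.

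The poly-A libraries held 27139978 to 158667309 summed expected counts in the MYC group and 55026416 to 130576913 in the control group. MYC itself, the introduced gene, stood at 105.4, 110.3 and 92.1 CPM (counts per fixed total of the library) in the MYC libraries and at 3.91, 4.16 and 4.51 CPM in the control libraries. Its log2 fold change was 4.60 ± 0.10 (SE; edgeR, adjusted p = 9.71e-08), and reads from the vector and from the cell's own MYC gene were not told apart. All 8 plasma cell markers checked, among them SDC1 and IRF4, were above 1 TPM (a level scaled for transcript length and library total) in both groups, with summed levels of 3428 to 3486 TPM in MYC and 3701 to 4220 TPM in control libraries. Markers of other cells summed to far less: T and NK cell markers to 12.1 to 14.3 TPM in MYC and 8.32 to 10.8 TPM in control libraries, epithelial markers to at most 8.68 TPM in MYC and 4.77 TPM in control libraries, and B cell, myeloid and stromal markers each to at most 2.00 TPM in MYC and 3.06 TPM in control libraries. No marker was listed at 0 in every library, and the part of these markers in the sirtuin results was not tested. Whether replicates were grown as separate cultures is not stated. The p-values therefore measure only the spread between these samples, which may be technical.

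Sirtuin levels were called at an adjusted p under 0.05 in edgeR's quasi-likelihood test, with Benjamini-Hochberg adjustment over all genes tested. By this rule 1 sirtuin (SIRT4) was higher in MYC cells and 4 (SIRT2, SIRT3, SIRT6 and SIRT7) were lower, while SIRT1 and SIRT5 were not called. That is 71.4% of the 7, in a comparison that called 60.8% of all genes tested, 28.8% as higher and 32.1% as lower, so that the share of called sirtuins lies near the background. The sizes ranged from a 4.01-fold lower SIRT6 to a 1.53-fold higher SIRT4. The median log2 fold change was -0.47 over the 7 sirtuins and -0.02 over all genes tested. Much of this pattern ran along the GC content of the transcripts. The fold changes, family sums and counts below are therefore given also after a GC offset. This offset removed each library's departure from the mean trend of all libraries with GC content. Shares, the order of levels and transcript lengths are given without it. After that offset, 1 sirtuin was called higher (SIRT4) and 3 were called lower (SIRT1, SIRT3 and SIRT6), against 58.5% of all genes called, 27.2% as higher and 31.4% as lower.

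**Figure D1:**
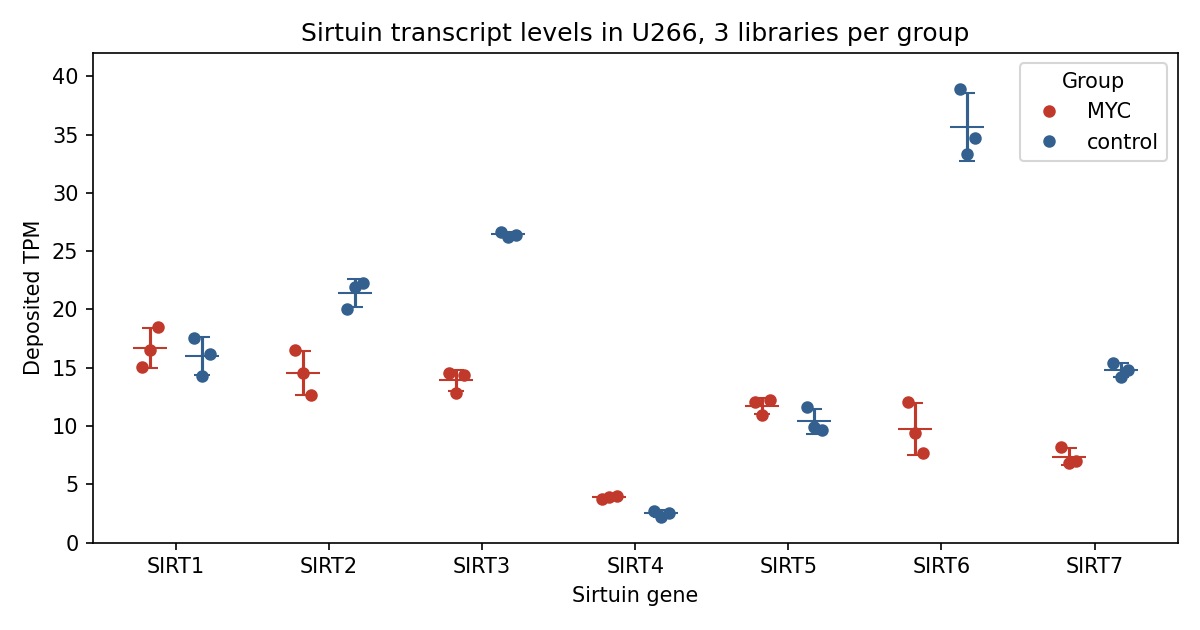
Deposited TPM of each sirtuin (vertical axis) in the 3 MYC (left of each pair) and 3 control libraries (right), 1 point per library with the group mean as a line and the SD as a bar. SIRT6 lies at 7.66 to 12.1 TPM in MYC libraries and at 33.3 to 38.9 TPM in control libraries, the widest gap of the 7, whereas the SIRT1 and SIRT5 groups overlap.

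The promoters of 3 sirtuins are printed because they differ in the letters that known regulators read, MYC included. The stretches are the 250 bases before a RefSeq start in GRCh38.p14, of which there were 9 for 6 of the 7 sirtuins, and none for SIRT7. SIRT4, SIRT5 and SIRT6 had 2 starts each, and for SIRT4 and SIRT6 the first listed is printed. Each was searched on both strands for the MYC/MAX E-box (CACGTG), the cAMP response element (TGACGTCA), the GC box (GGGCGG) and an ETS site (CCGGAAG). Capitals mark every match, in the letters of the printed strand. The SIRT1 stretch lies at chr10:67884406-67884655 on the plus strand, that of SIRT6 at chr19:4182564-4182813 on the minus strand, and that of SIRT4 at chr12:120291939-120292188 on the plus strand.
SIRT1: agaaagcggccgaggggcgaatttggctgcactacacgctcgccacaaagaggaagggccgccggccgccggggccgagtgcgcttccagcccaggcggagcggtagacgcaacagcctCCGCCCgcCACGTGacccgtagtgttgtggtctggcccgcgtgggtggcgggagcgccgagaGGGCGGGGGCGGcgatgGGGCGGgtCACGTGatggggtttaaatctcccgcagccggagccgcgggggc
SIRT6: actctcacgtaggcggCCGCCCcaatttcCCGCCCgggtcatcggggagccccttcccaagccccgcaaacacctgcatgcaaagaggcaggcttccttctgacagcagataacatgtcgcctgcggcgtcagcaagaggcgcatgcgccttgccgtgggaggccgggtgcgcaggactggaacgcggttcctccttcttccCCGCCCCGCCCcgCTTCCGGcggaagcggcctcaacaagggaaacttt
SIRT4: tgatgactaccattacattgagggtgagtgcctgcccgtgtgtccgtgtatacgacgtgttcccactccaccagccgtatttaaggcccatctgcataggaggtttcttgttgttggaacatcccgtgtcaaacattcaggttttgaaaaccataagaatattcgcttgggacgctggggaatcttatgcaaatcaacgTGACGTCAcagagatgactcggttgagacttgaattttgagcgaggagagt
The SIRT1 stretch held 2 E-boxes, starting 123 and 44 bases upstream of the start, and 4 GC boxes. CACGTG occurred in 6.34% of 35116 such promoter stretches over all genes, and 0.535% held it at least 2 times. None of the stretches, at any start, of SIRT2, SIRT3, SIRT4, SIRT5 or SIRT6 contained it, which says only that these letters are not in these windows. The SIRT6 stretch held 4 GC boxes, 2 of them overlapping by 1 base, and 1 ETS site, whereas that of its other start held 1 GC box and no ETS site. GC boxes were found in 42.6% and the ETS letters in 8.52% of all stretches, and 24.3% held at least 2 GC boxes. The SIRT4 stretch held the cAMP response element 51 bases upstream, a motif present in 1.65% of all stretches and not in that of the other SIRT4 start. Counted by gene over all its starts, the share was 2.03%. A match is a description of the sequence, and neither binding nor the start used in U266 was measured.

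SIRT6 (ENSG00000077463.10, chromosome 19) deacetylates histone H3, keeps telomeres and DNA repair in order and, in mouse cells, holds down glycolytic genes. Its level was 12.1, 9.44 and 7.66 TPM in MYC libraries, against 38.9, 33.3 and 34.7 TPM in control libraries. The groups did not overlap, and the highest MYC library stood well below the lowest control library. In CPM, SIRT6 was 10.8, 8.24 and 5.28 in MYC and 33.5, 32.0 and 30.1 in control libraries, from 286 to 1282 expected counts per MYC library and 1862 to 3984 per control library. SIRT6 fell by 2.00 ± 0.21 on the log2 scale (SE; edgeR, adjusted p = 7.09e-05), a 4.01-fold lower level. SIRT6 transcripts are also the most GC-rich of the family, at 65.5% GC. With the GC offset the level was 15.3, 13.1 and 11.2 CPM in MYC and 21.1, 17.7 and 18.4 CPM in control libraries, still without overlap. The difference then fell to 1.46-fold (log2 fold change -0.54 ± 0.10, SE; edgeR, adjusted p = 0.00161). It was called lower under all 25 alternative settings run, with log2 fold changes from -2.20 to -0.47.

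SIRT7 (ENSG00000187531.9, chromosome 17) is the nucleolar sirtuin, which binds RNA polymerase I and supports transcription of ribosomal RNA genes. It stood at 8.18, 6.86 and 7.03 TPM in MYC libraries and at 15.4, 14.2 and 14.8 TPM in control libraries. All 3 MYC values lay below all 3 control values. Without the offset SIRT7 was 1.98-fold lower in MYC cells (log2 fold change -0.99 ± 0.11, SE; edgeR, adjusted p = 0.000111). With the GC offset it was no longer called (log2 fold change -0.10 ± 0.08, SE; edgeR, adjusted p = 0.313), and the groups overlapped, at 13.4, 11.2 and 13.5 CPM in MYC and 13.8, 13.1 and 13.3 CPM in control libraries. The GC content used, 61.2%, is over 21 annotated transcripts, and with that of the longest transcript alone SIRT7 was again called lower, by 0.62 ± 0.08 on the log2 scale (SE; edgeR, adjusted p = 0.000154).

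SIRT1 (ENSG00000096717.7, chromosome 10) is the best studied member and deacetylates histones, p53 and FOXO factors. MYC libraries had 15.1, 16.6 and 18.5 TPM and control libraries 17.6, 14.3 and 16.2 TPM. The ranges overlapped over most of their length, and no difference was called (log2 fold change 0.06 ± 0.08, SE; edgeR, adjusted p = 0.559). SIRT1 transcripts are the most GC-poor of the family, at 38.5% GC. With the GC offset the groups separated, at 41.0, 43.6 and 43.0 CPM in MYC and 49.9, 49.5 and 50.1 CPM in control libraries, and SIRT1 was called lower by 0.22 ± 0.04 on the log2 scale (SE; edgeR, adjusted p = 0.000803). Its direction therefore depends on that setting. Its promoter stretch, printed above, was the only one of the 6 sirtuins' to hold CACGTG.

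SIRT2 (ENSG00000068903.15, chromosome 19), the cytosolic member, deacetylates tubulin and cell cycle proteins. Its level was 16.5, 14.6 and 12.6 TPM in MYC libraries, against 20.02, 21.9 and 22.3 TPM in control libraries. No MYC value reached the control range, and SIRT2 was called 1.38-fold lower (log2 fold change -0.47 ± 0.12, SE; edgeR, adjusted p = 0.00882). Its transcripts have 58.8% GC, and the GC offset turned the sign. The log2 fold change was then 0.11 ± 0.05, which was not called (SE; edgeR, adjusted p = 0.108), and with the GC content of the longest transcript it was 0.28 ± 0.05, called higher (SE; edgeR, adjusted p = 0.000883).

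SIRT3 (ENSG00000142082.10, chromosome 11) is the main deacetylase of mitochondrial proteins, with substrates in the TCA cycle, fatty acid oxidation and the respiratory chain. MYC libraries held 14.5, 12.8 and 14.4 TPM and control libraries 26.7, 26.2 and 26.4 TPM. The control libraries lay close together, and the groups were far apart. SIRT3 was 1.63-fold lower in MYC cells (log2 fold change -0.70 ± 0.08, SE; edgeR, adjusted p = 0.000134). At 57.6% GC it kept its call with the GC offset, at 22.5, 20.1 and 23.8 CPM in MYC against 26.6, 25.9 and 26.2 CPM in control libraries (log2 fold change -0.25 ± 0.06, SE; edgeR, adjusted p = 0.00734). It lost the call in 1 of 25 alternative settings, the offset with the GC content of its longest transcript (log2 fold change -0.16, edgeR, adjusted p = 0.0581).

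SIRT4 (ENSG00000089163.4, chromosome 12) is a mitochondrial lipoamidase and ADP-ribosyltransferase that restrains glutamate dehydrogenase and pyruvate dehydrogenase. It was the least abundant sirtuin in both groups, with 3.70, 3.94 and 3.97 TPM in MYC libraries and 2.74, 2.19 and 2.58 TPM in control libraries. Every MYC library exceeded every control library. As few as 80 expected counts stood behind the value of the shallowest MYC library. SIRT4 was 1.53-fold higher in MYC cells, the only sirtuin called higher (log2 fold change 0.61 ± 0.12, SE; edgeR, adjusted p = 0.00229). Its GC content of 51.4% lies where the trend crosses 0, and the value with the GC offset was the same to the second decimal (log2 fold change 0.61 ± 0.11, SE; edgeR, adjusted p = 0.00122). It was called higher in all 24 alternative settings that tested it, and the filter at a mean of 5 CPM removed it.

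SIRT5 (ENSG00000124523.10, chromosome 6) removes succinyl, malonyl and glutaryl groups from mitochondrial enzymes. It had 12.03, 10.9 and 12.2 TPM in MYC libraries and 11.7, 9.88 and 9.68 TPM in control libraries. These TPM ranges overlapped, whereas the CPM values, 20.7, 19.3 and 20.5 in MYC and 18.9, 17.3 and 17.1 in control libraries, did not. The difference just missed the threshold (log2 fold change 0.18 ± 0.07, SE; edgeR, adjusted p = 0.0504), passed it in 5 of 25 alternative settings and was near 0 with the GC offset (log2 fold change -0.03 ± 0.06, SE; edgeR, adjusted p = 0.622). In all, 6 of the 7 sirtuins had CPM ranges without overlap, beside 67.1% of all genes tested, 5 had TPM ranges without overlap, beside 59.7%, and 5 had CPM ranges without overlap after the GC offset, beside 64.6%.

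**Figure D2:**
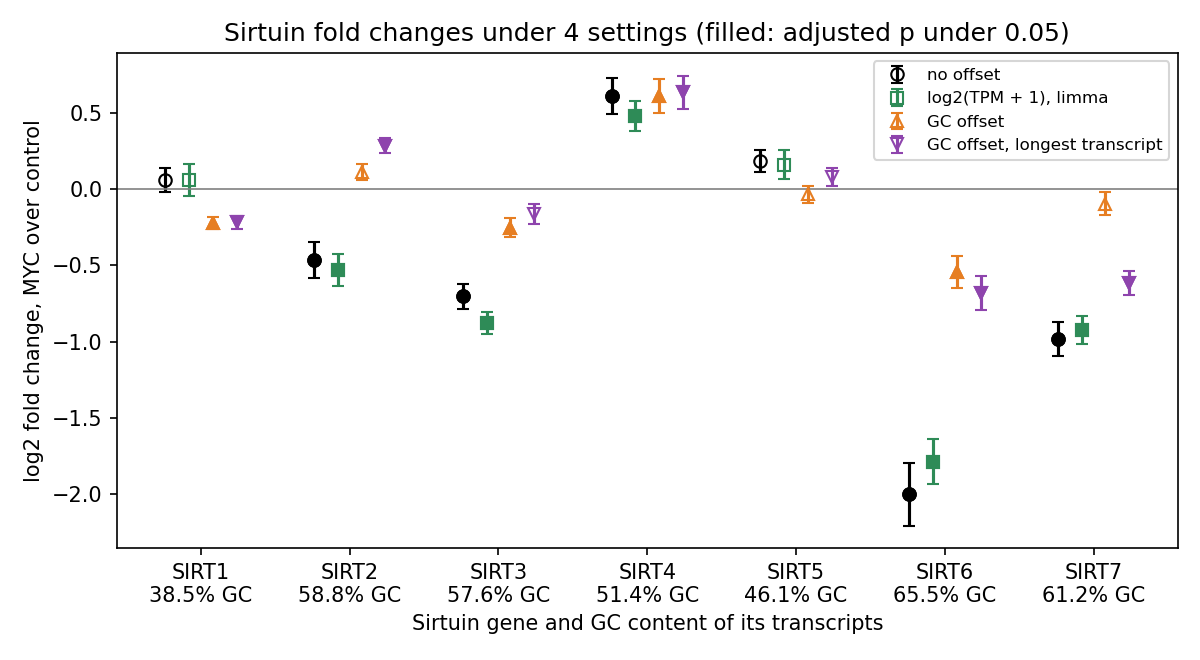
Log2 fold change of each sirtuin, MYC over control, with its SE as a bar, under 4 settings: no offset, log2(TPM + 1) with limma, the GC offset, and the GC offset with the GC content of the longest transcript. Filled symbols have an adjusted p under 0.05. SIRT6 stays below 0 and SIRT4 above 0 in all 4, whereas SIRT1 and SIRT2 lie on both sides of 0.

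The trend with GC content was a property of all genes. Over the 17202 tested genes with a known GC content, the fold change fell as GC rose (Spearman's rho -0.563 across genes of the same libraries, a description). Genes of 38 to 40% GC, the range of SIRT1, had a median log2 fold change of 0.25. Those of 46 to 48% GC, as SIRT5, had 0.14, and those of 50 to 52%, as SIRT4, had -0.01. The medians were -0.44 around SIRT3 (56 to 58%), -0.65 around SIRT2 (58 to 60%), -0.92 around SIRT7 (60 to 62%) and -1.46 around SIRT6 (64 to 66%), where 90.4% of genes were called lower. Thus SIRT5 and SIRT7 stood closest to the median of genes of their own GC content, SIRT6, SIRT3 and SIRT1 below it and SIRT4 and SIRT2 above it.

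For each library, the fitted level at 65% GC was taken relative to that at 40% GC, after subtracting the mean trend of all libraries. This value was -0.54, -0.76 and -1.23 (log2) in the MYC libraries and 0.69, 1.02 and 0.82 in the control libraries. The subtraction centres the values, so their signs show a difference between groups, not an absolute loss or gain of GC-rich genes. Relative to the mean trend, every library of a group leaned the same way. MYC library 3, which leaned most, also had the least SIRT6. Without that library the log2 fold change of SIRT6 was -1.79 (edgeR, adjusted p = 6.95e-07), and -0.47 with the GC offset (edgeR, adjusted p = 0.00222). The trend moves with the groups, so a difference in GC response between libraries and a difference in the RNA of GC-rich genes cannot be told apart.

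**Figure D3:**
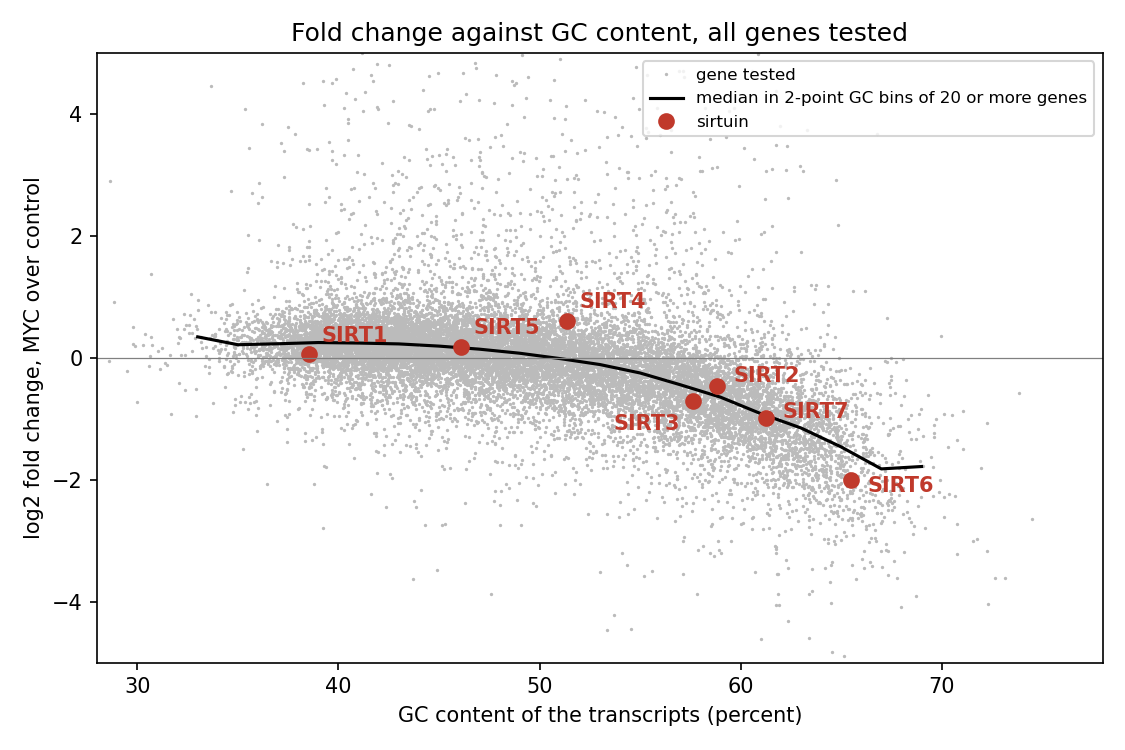
Log2 fold change of MYC over control (vertical axis) against the GC content of the transcripts in percent, 1 grey point per gene tested, with the median in bins of 2 percentage points as a line and the sirtuins in red. The line runs down from 0.25 at 38 to 40% GC to -1.46 at 64 to 66% GC, with SIRT4 and SIRT2 above it and SIRT3, SIRT6 and SIRT1 below it. Genes past 5 log2 units in either direction are outside the axes.

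Summed over the family, sirtuin RNA was 82.1, 75.1 and 76.3 TPM in MYC libraries, against 133.0, 122.1 and 126.6 TPM in control libraries. The MYC sum was 0.612 times the control sum (77.8 ± 3.71 TPM in MYC and 127.2 ± 5.50 TPM in control libraries, SD, n = 3 each). In CPM with the GC offset the sum was 139.4, 132.1 and 134.4 in MYC libraries and 154.6, 148.3 and 149.9 in control libraries, a ratio of 0.897, where the CPM without it had a ratio of 0.730. CPM is not scaled for transcript length, so the long SIRT1 transcripts weigh more in it than in TPM. The ratios 0.612 and 0.730 thus differ in weighting, and only 0.730 and 0.897 share a unit. By none of these measures did the groups overlap, and the two-sided exact permutation test gave p = 0.1 for each, the smallest that 3 against 3 allows. By compartment, the nuclear sirtuins summed to 33.8 ± 1.35 TPM in MYC and 66.5 ± 5.09 TPM in control libraries, and the mitochondrial ones to 29.5 ± 1.56 TPM in MYC and 39.3 ± 1.49 TPM in control libraries. With the GC offset the nuclear sum was 0.832 and the mitochondrial sum 0.926 times that of the control libraries, in CPM. In that nuclear sum SIRT1 averaged 42.5 CPM in MYC and 49.8 CPM in control libraries. SIRT6 averaged 13.2 and 19.1 CPM there, and SIRT7 12.7 and 13.4 CPM. SIRT6 made up 12.4% of all sirtuin TPM in MYC libraries and 27.98% in control libraries. SIRT1 made up 21.5% in MYC and 12.6% in control libraries, although its own level overlapped between the groups. The mitochondrial share was 37.9% in MYC and 30.9% in control libraries, also without overlap.

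**Figure D4:**
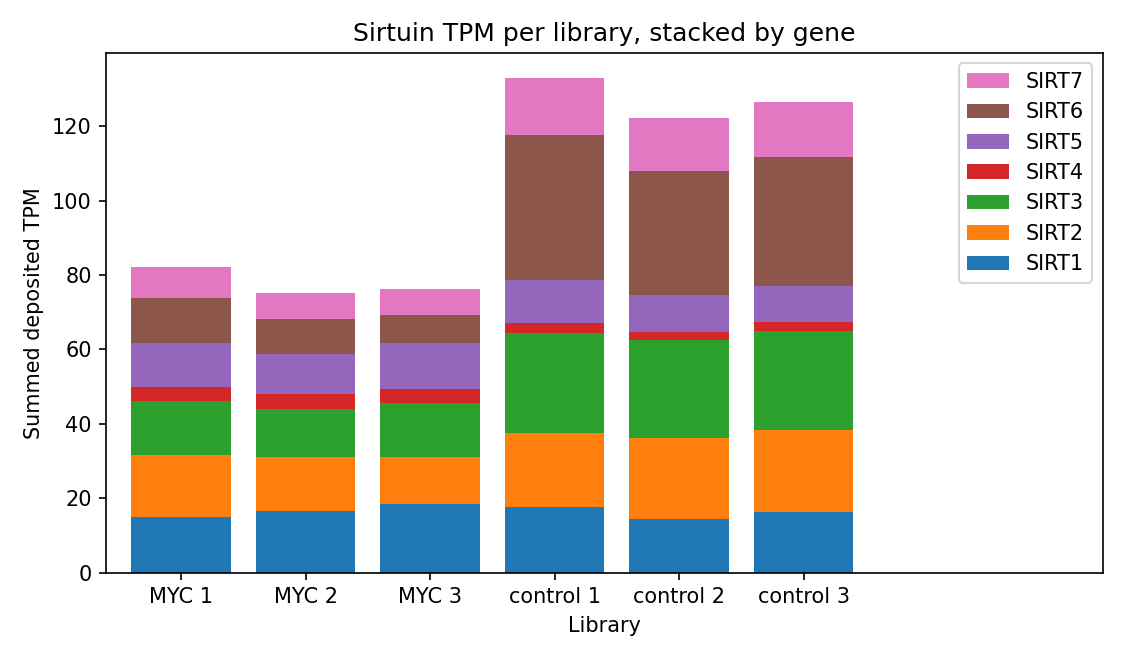
Summed deposited TPM of the 7 sirtuins (vertical axis), stacked by gene, in each MYC and each control library. The MYC bars end at 75.1 to 82.1 TPM and the control bars at 122.1 to 133.0 TPM, and the SIRT6 layer shows the largest loss.

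The order of the levels, which TPM allows between genes, differed between the groups. In MYC libraries it ran SIRT1, SIRT2, SIRT3, SIRT5, SIRT6, SIRT7, SIRT4 by mean TPM, and the ranges of neighbours overlapped between SIRT1 and SIRT2, SIRT2 and SIRT3, SIRT5 and SIRT6, and SIRT6 and SIRT7. In control libraries it ran SIRT6, SIRT3, SIRT2, SIRT1, SIRT7, SIRT5, SIRT4, and only SIRT1 and SIRT7 overlapped. By TPM, the most abundant sirtuin of the control cells had rank 5 in MYC cells. TPM is scaled for length but not for GC content, and the order was not worked out with the GC offset. SIRT6 averaged 8.11 CPM in MYC and 31.9 CPM in control libraries without that offset, and 13.2 and 19.1 CPM with it. The order and the shares above are therefore open to the GC trend.

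Ratios between sirtuins of the same library were compared over the 21 pairs. The log2 ratio of SIRT1 to SIRT6 in TPM was 0.80 in MYC and -1.15 in control libraries, and that of SIRT4 to SIRT6, the pair that differed most, was -1.31 in MYC and -3.83 in control libraries. In 19 of 21 pairs the ratio did not overlap between the groups, beside 61.1% of all pairs of tested genes. The exceptions were SIRT1 with SIRT5 (difference -0.12) and SIRT3 with SIRT7 (difference 0.08). After the GC offset, in CPM, 15 of 21 ratios (71.4%) did not overlap, beside 61.4% of all pairs of tested genes. No pair passed the threshold by the two-sided exact permutation test adjusted over the 21 pairs (smallest p = 0.111), a threshold that 3 against 3 cannot reach.

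The mean transcript length that RSEM reports, weighted by the estimated isoform levels, gives a second readout of the same reads. For SIRT3 it was 1977, 1909 and 1920 bases in MYC libraries and 1685, 1715 and 1746 bases in control libraries. The MYC libraries were assigned longer SIRT3 isoforms on average, with no overlap between the groups (two-sided exact permutation p = 0.1, the smallest possible). SIRT6 went the other way, with 1309, 1302 and 1138 bases in MYC and 1363, 1404 and 1354 bases in control libraries. SIRT2 was longer in MYC libraries (mean 1861 bases, against 1797 bases in control libraries) and SIRT1 shorter (mean 3771 bases, against 3892 bases). The lengths of SIRT4, SIRT5 and SIRT7 overlapped. Thus 4 of 7 sirtuins had no overlap, beside 31.1% of 14293 genes with over 1 transcript. The longer assigned SIRT3 transcripts enter its TPM, whose log2(TPM + 1) fold change was -0.88 with limma, beyond the -0.70 of the counts. Isoform estimates from short reads are uncertain, and GC content of the isoforms was not tested here.

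Some sirtuin genes share their locus with another gene, and the library kit does not mark strand. SIRT2 overlaps NFKBIB, an inhibitor of NF-kB, on the opposite strand, and NFKBIB was also called lower (log2 fold change -0.76, edgeR, adjusted p = 0.000253), but had a log2 fold change of 0.36 with the GC offset (edgeR, adjusted p = 0.00115). SIRT3 overlaps PSMD13, a proteasome subunit, on the opposite strand, but PSMD13 was higher in MYC cells (log2 fold change 0.35, edgeR, adjusted p = 0.000694), opposite to SIRT3. SIRT7 overlaps MAFG, a small MAF transcription factor, on the same strand, and MAFG was lower (log2 fold change -1.08, edgeR, adjusted p = 3.57e-05; -0.61 with the GC offset). SIRT4 overlaps a small nuclear RNA gene and SIRT5 an antisense gene. Reads in the shared parts cannot be told apart. SIRT1 and SIRT6 overlap no annotated gene. Of the 14 nearest protein-coding neighbours of the sirtuins, 13 were tested, 4 were called higher and 5 lower (28.8% and 32.1% of all genes), but 8 higher and 2 lower with the GC offset (27.2% and 31.4% of all genes).

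The zinc-dependent deacetylases HDAC1 to HDAC11, which act on the same acetyl marks without NAD+, split evenly. Of the 11, 5 were called higher and 6 lower, beside 28.8% and 32.1% of all genes tested. The median log2 fold change was -0.45, close to the -0.47 of the sirtuins. HDAC6, the cytosolic tubulin deacetylase that shares this substrate with SIRT2, averaged 42.01 ± 1.74 TPM in MYC and 55.6 ± 0.379 TPM in control libraries (SD, n = 3 each). It was lower by 0.84 on the log2 scale of CPM (edgeR, adjusted p = 4.9e-05). HDAC5, a class IIa corepressor, averaged 23.2 ± 4.92 TPM in MYC and 69.6 ± 3.33 TPM in control libraries, with a log2 fold change of -1.39 (edgeR, adjusted p = 5.4e-05). HDAC6 and HDAC5 were also the 2 still called lower with the GC offset (log2 fold changes -0.53 and -0.51). Then 5 others were called higher, and the median was 0.03, beside 27.2% of all genes called higher and 31.4% lower. HDAC7 turned from called lower (log2 fold change -0.73, edgeR, adjusted p = 0.00064) to called higher (log2 fold change 0.30, edgeR, adjusted p = 0.00034), and HDAC9 lost its higher call. HDAC7 and HDAC9 were named after their values were seen.

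**Figure D5:**
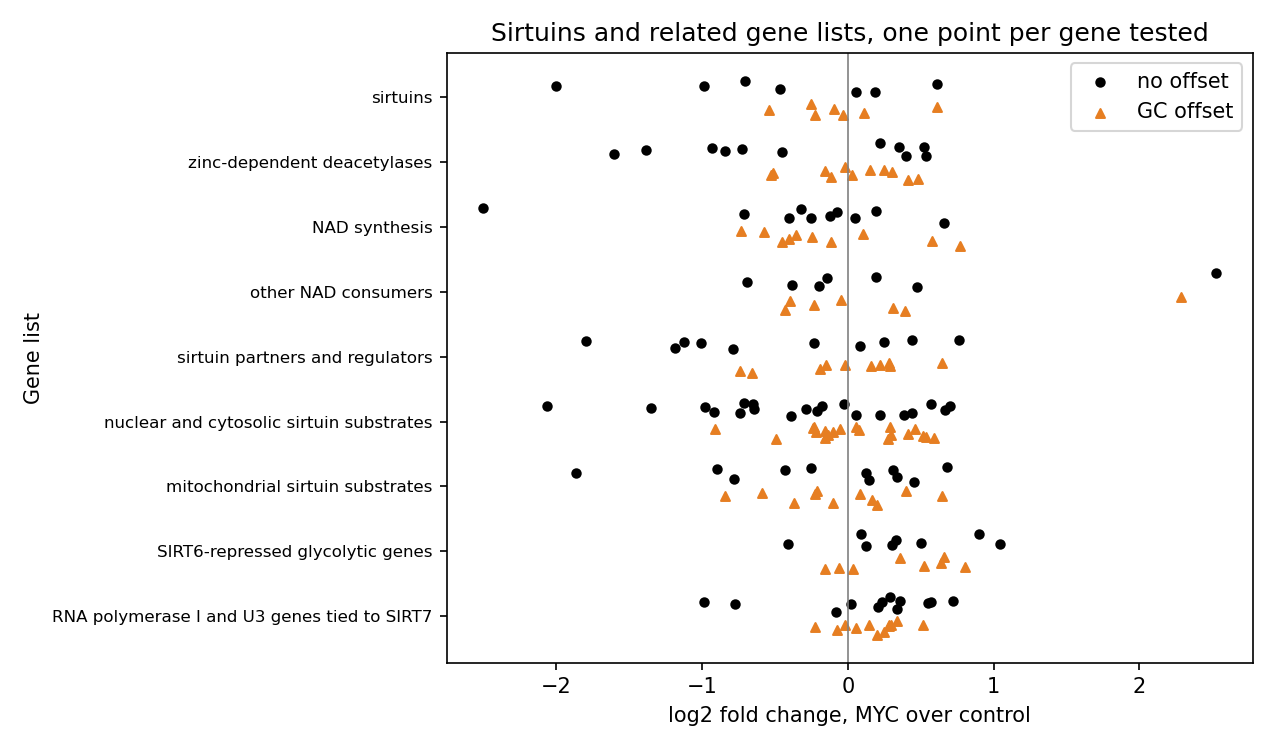
Log2 fold change of MYC over control (horizontal axis) for every tested gene of the sirtuin family and of 8 related lists, 1 row per list, without an offset (black) and with the GC offset (orange). With the offset the sirtuins span -0.54 to 0.61, and CD38, among the other NAD consumers, lies apart at 2.28.

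A list of 12 genes held enzymes of NAD+ synthesis, the NAD+ kinases NADK and NADK2, and the mitochondrial NAD+ carrier SLC25A51. Of these, 10 were tested, and 1 was called higher and 5 lower (median log2 fold change -0.19), or 2 and 6 with the GC offset (median -0.30). The 1 called higher without the offset was SLC25A51, not a synthesis enzyme (log2 fold change 0.19, edgeR, adjusted p = 0.0395). It was not called with the offset, and was named after its values were seen. Over all genes tested 28.8% were called higher and 32.1% lower (27.2% and 31.4% with the offset), and these shares stand behind every list below. NAMPT, which makes the nicotinamide mononucleotide precursor of NAD+, averaged 135.6 ± 14.4 TPM in MYC and 167.9 ± 14.7 TPM in control libraries. In counts it was not called (log2 fold change -0.08, edgeR, adjusted p = 0.416), and with the GC offset it was called lower (log2 fold change -0.35, edgeR, adjusted p = 5.4e-05). NAPRT, which starts NAD+ synthesis from nicotinic acid, was barely expressed, at 0.303 ± 0.14 TPM in MYC and 1.47 ± 0.159 TPM in control libraries, and was called lower (log2 fold change -2.50, edgeR, adjusted p = 3.12e-05; -0.73 with the GC offset). NADK, the cytosolic NAD+ kinase, was lower by 0.71 on the log2 scale (edgeR, adjusted p = 0.000815; log2 fold change -0.25 with the GC offset).

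Among other NAD+ consumers, 7 of 8 were tested, with 3 called higher and 3 lower with and without the GC offset, but not over the same genes. SARM1 was called lower without the offset (log2 fold change -0.38, edgeR, adjusted p = 0.0272) and higher with it (log2 fold change 0.31, edgeR, adjusted p = 0.00448). PARP2 was called higher only without it, and TNKS2 lower only with it. CD38, the NAD+ glycohydrolase that is also a myeloma surface antigen, averaged 2.29 ± 0.311 TPM in MYC and 0.43 ± 0.01 TPM in control libraries, a log2 fold change of 2.53 (edgeR, adjusted p = 7.75e-07; 2.28 with the GC offset). PARP1, the main nuclear poly(ADP-ribose) polymerase, was higher by 0.48 on the log2 scale (edgeR, adjusted p = 9.06e-05; 0.39 with the GC offset). CD38 and PARP1 thus stood higher in the MYC libraries, but as many genes of this list were called lower as higher. PARP3 (log2 fold change -0.69, edgeR, adjusted p = 0.00039; -0.23 with the GC offset) and TNKS (-0.19, edgeR, adjusted p = 0.0278; -0.43 with the GC offset) were called lower in both settings. The genes of this list other than CD38 and PARP1 were named after their values were seen.

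Of 10 partners and regulators of sirtuins, 3 were called higher and 6 lower (median log2 fold change -0.51), or 4 and 4 with the GC offset (median 0.07). RPS19BP1, an activator of SIRT1 also called AROS, averaged 50.8 ± 6.81 TPM in MYC and 119.2 ± 3.12 TPM in control libraries, with a log2 fold change of -1.19 (edgeR, adjusted p = 4.49e-05; -0.74 with the GC offset). CCAR2, an inhibitor of SIRT1 also called DBC1, was called lower without the offset (log2 fold change -0.23, edgeR, adjusted p = 0.0236) and higher with it (log2 fold change 0.16, edgeR, adjusted p = 0.00256). KDM1A, a histone demethylase that works with SIRT1 in gene repression, was higher (log2 fold change 0.76, edgeR, adjusted p = 1.08e-05; 0.65 with the GC offset).

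Genes of sirtuin substrate proteins moved in both directions. Of 20 nuclear and cytosolic substrates, 6 were called higher and 11 lower (median log2 fold change -0.25), or 8 and 7 with the GC offset (median 0.00). BUB1B, the spindle checkpoint kinase that SIRT2 deacetylates, was higher (log2 fold change 0.70, edgeR, adjusted p = 1.58e-05; 0.46 with the GC offset), and FZR1, the CDH1 activator of the anaphase-promoting complex and a further SIRT2 substrate, was lower (log2 fold change -2.07, edgeR, adjusted p = 1.83e-05; -0.91 with the GC offset). Of 15 mitochondrial substrates, 11 were tested, and 4 were called higher and 4 lower (median 0.12), or 4 and 5 with the GC offset (median -0.10). LONP1, the matrix protease, was lower (log2 fold change -1.87, edgeR, adjusted p = 1.08e-05; -0.84 with the GC offset), as was ACSS1, the mitochondrial acetyl-CoA synthetase activated by SIRT3 (log2 fold change -0.90, edgeR, adjusted p = 2.46e-05; -0.59 with the GC offset).

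Of 9 glycolytic genes that SIRT6 represses in mouse cells, 8 were tested, and 5 were called higher and 1 lower (median log2 fold change 0.32). The counts were also 5 and 1 with the GC offset (median 0.44), but not over the same genes: PDK1 was called higher and SLC2A1 lower only without it, and ALDOC higher and HIF1A lower only with it. These 4 genes, and those named below for the polymerase list beyond POLR1B and TAF1C, were named after their values were seen. LDHA, the lactate dehydrogenase subunit that favours lactate, averaged 1075 ± 77.3 TPM in MYC and 588.7 ± 53.6 TPM in control libraries (log2 fold change 1.04, edgeR, adjusted p = 3.8e-06; 0.81 with the GC offset). LDHB, the other main subunit, was higher by 0.90 on the log2 scale (edgeR, adjusted p = 6.6e-06; 0.66 with the GC offset). LDHA and LDHB thus moved opposite to SIRT6, and whether SIRT6 bears on them was not tested.

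Of 12 genes of RNA polymerase I, its factors and the U3 particle, which work with SIRT7 in the nucleolus, 7 were called higher and 2 lower (median log2 fold change 0.26), or 7 and 1 with the GC offset (median 0.22). POLR1B, the second largest subunit of the polymerase, averaged 54.4 ± 3.38 TPM in MYC and 36.5 ± 4.07 TPM in control libraries (log2 fold change 0.72, edgeR, adjusted p = 1.27e-05; 0.52 with the GC offset). TAF1C, a subunit of its promoter selectivity factor, was lower without the offset (log2 fold change -0.99, edgeR, adjusted p = 7.27e-06), and its value with the GC offset was 0.15 (edgeR, adjusted p = 0.171). RRP9, of the U3 particle, was the other gene called lower without the offset, and POLR1D, UBTF and TAF1A were not called without it. The calls with the offset were not over the same genes. POLR1D was then called lower (log2 fold change -0.22, edgeR, adjusted p = 0.00352) and UBTF higher (log2 fold change 0.20, edgeR, adjusted p = 0.00237). RRN3 lost its higher call and RRP9 its lower call.

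The genes most like each called sirtuin were sought among 9776 protein-coding genes by Pearson's r of log2 CPM over the 6 libraries, as a description, since the libraries share the group difference and the GC trend. SIRT6 was most like SURF4 (r = 0.9999) and SGTA (r = 0.9998), but 23.3% of all genes compared had an r above 0.95 with it. SIRT7 was most like SUMF2 and VPS37C, SIRT3 like PIP5KL1 and ING4, and SIRT2 like FLOT2 and C19orf53, with r from 0.9978 to 0.9994. SIRT4 was most like FAM83D (r = 0.9986) and TBC1D5 (r = 0.9978), with 8.88% of genes above 0.95. So many genes follow the same course over these 6 libraries that likeness singles out none of them.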

How the data were processed

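Poly-A RNA-seq was measured in 3 MYC and 3 control samples of U266. Reads were handled with cutadapt and TopHat2 on GRCh37, per the submitters' processing notes, whose versions and annotation are not given in these sources. The deposited tables are RSEM output per gene: an expected count, a TPM (scaled by the authors for length and depth), and a mean and an effective transcript length in bases, per the file headers. The kit named in the labels does not mark strand. No row lacked a gene identifier, and 51996 of 57820 identifiers matched a symbol.

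Rounded expected counts went into edgeR 4.0.16 (R 4.3.3; filterByExpr, TMM factors, group only, quasi-likelihood F test, Benjamini-Hochberg adjustment over 17679 genes, threshold 0.05). SEs were derived from the F statistic. The procedure was also run on simulated counts, in which few genes changed and no GC trend was built in. That run therefore cannot show how the calls behave under the GC trend and the many changed genes seen here. Levels between genes are TPM. For the GC offset, a loess curve (span 0.4) of log2 CPM against transcript GC content was fitted in each library. The departure of that curve from the mean curve of all libraries was subtracted, so a trend common to all libraries stayed. GC content was taken from GENCODE 29 by identifier for 17202 tested genes. Promoters are from RefSeq. Errors marked SD are the spread between samples. Those marked SE come from the edgeR fit, which combines counting noise with the spread between samples and moderates the latter over all genes. Samples were not duplicates: chi-square per degree of freedom within groups was 8.67 to 42.6.

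The members, lists and rule for named genes were chosen with earlier results of these data known. Named were the 7 sirtuins, MYC, CCAR2, RPS19BP1, NAMPT and PARP1 always; per list the 2 called genes of smallest adjusted p; per called sirtuin the 2 most correlated protein-coding genes with a mean of at least 5 CPM; and overlapping neighbours. Alternatives were RLE factors, total counts, DESeq2 1.42.0, limma-voom and log2(TPM + 1) or log2(TPM + 0.1) with limma 3.58.1, other filters, an effective length offset, the GC offset, a replicate block, and each library left out. Added after seeing the data were the GC offset from the longest transcript, the GC offset with each library left out, and sums of CPM after the GC offset.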

Additional observations from a re-analysis of the deposited data

How the results depend on the processing

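The 25 alternatives run called 3 or 4 sirtuins lower, but not the same ones. SIRT6 stayed called lower in 25 of 25, SIRT4 called higher in 24 of 24, SIRT3 called lower in 24 of 25, SIRT7 in 17 and SIRT2 in 16, while SIRT1 was called lower in 9, all with a GC offset. For the following changes the cause was not tested. The sirtuins called higher became 2 with RLE factors, DESeq2, limma-voom and the GC offset of the longest transcript, and 1 to 2 with a library left out, without or with the GC offset (2 without control replicate 1, or without MYC replicate 3 with the offset). The zinc-dependent deacetylases called lower became 2 with the GC offset, with the GC offset and replicate block, and in all 6 GC-offset fits without a library, and those called higher 3 with the longest transcript. The lower calls over all genes became 3694 with a mean CPM of at least 5, a filter that tests fewer genes (10563). Lower calls over the context lists, 38 without the offset, were 24 to 31 in the GC-offset fits without a library (24 without MYC replicate 2). The log2 ratio of summed sirtuin RNA was -0.71 in TPM, -0.45 in CPM and -0.16 in CPM after the GC offset. TPM and CPM weigh transcripts of unlike length differently.

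With the GC offset, with that offset and the replicate block, and with the longest transcript, log2 fold changes turned sign to -0.22, -0.23 and -0.22 for SIRT1, to 0.11, 0.11 and 0.28 for SIRT2, to 0.16, 0.16 and 0.30 for CCAR2, to 0.15, 0.14 and 0.00984 for the TAF1C log2 fold change, to 0.11, 0.11 and 0.12 for FLOT2, and to 0.36, 0.36 and 0.046 for NFKBIB. SIRT5 turned to -0.034 and -0.031 in the first 2. With the GC offset and a library left out, SIRT1 ran from -0.24 to -0.21, SIRT2 from 0.062 to 0.15 (0.10 without MYC replicate 2 and 0.092 without control replicate 1) and SIRT7 from -0.16 to 0.0025 (above 0 without MYC replicate 2). SIRT5 was -0.072, 0.0021 and -0.044 without MYC replicate 1, 2 or 3 and -0.010, -0.044 and -0.066 without control replicate 1, 2 or 3. Without the offset, SIRT1 ran from -0.0025 (without control replicate 2) to 0.12.

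Replicate numbers did not pair the samples: deviations of same-numbered samples correlated at -0.0472, 0.0779 and 0.11. With the replicate block, 1 sirtuin was called higher and 4 lower, and 4649 and 5380 of all genes. Depth limits SIRT4 most, with 80 expected counts in MYC library 1.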
